A study of Canis lupus familiaris with 45 samples.

Results

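Solute carriers are the membrane proteins that move ions, metabolites, amino acids, nucleosides, vitamins and metals across cell and organelle membranes. This account follows them in the left ventricle of dogs during heart failure brought on by rapid pacing. The members are the probe sets to which the array annotation gives a single gene symbol that starts with SLC, with SLC22A3, SLC8A1 and the SLC2A genes left out. They came to 179 probe sets for 117 genes among the 23836 probe sets measured. Of these, 112 probe sets for 81 genes passed the filter on low signal and were tested. The mitochondrial carrier family SLC25 held 22 of the probe sets, of which 19 for 14 genes were tested. The remaining families held 157, of which 93 for 67 genes were tested. The other 36 genes had no probe set above the filter.

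SLC25 proteins sit mostly in the inner mitochondrial membrane and exchange ADP for ATP, carry phosphate and substrates, and run the shuttles that bring reducing equivalents into the matrix, which a heart muscle cell needs for every beat. Carriers of the plasma membrane load the cell with amino acids and taurine, set its sodium, proton and bicarbonate levels, and remove adenosine from around it. Others lie in the Golgi, the endoplasmic reticulum, lysosomes and vesicles, where they supply nucleotide sugars and recover digestion products.

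The study was made to follow left ventricular gene expression as failure develops. RNA came from 15 male, age-matched dogs in 5 groups of 3: unpaced dogs (Day-0), and dogs whose right ventricle was paced at 240 beats per minute and which were sampled after 3 days, 1 week, 2 weeks or, at the End-stage, 3 to 4 weeks of pacing; the earlier groups are called Day-3, Week-1 and Week-2. The lead was fixed to the outer surface of the right ventricle. Each dog gave a single sample through the whole thickness of the ventricular wall, from which RNA was isolated 3 times, so that 45 arrays were made. The dog was the replicate and the 3 isolations were averaged. All values are MAS5 signals, an array brightness with no unit that can be compared between dogs for a given probe set but not between probe sets. Differences are on the log2 scale, with the standard error (SE) of the limma fit.

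All 11 heart muscle marker genes with a single-symbol probe set passed the filter. Each array was compared only with arrays of dogs labelled with the same number, so a match to a dog of another number could not be seen. End-stage dog 1 and Week-1 dog 1 had 6 arrays. Of these, 4 correlated best with an array of the other dog of this pair (r between 0.758 and 0.944). None of the other 39 arrays lay closest to another dog of its own number. Without these 2 dogs the differences of the members for all paced dogs moved by a median of 0.0403 and at most 0.237, and 16 of 112 changed sign, none of which had exceeded 0.156 in size. Where a printed value moved by more than 1.5 times and by at least 0.1, or where the text turns on it, the value without them is given beside it. Over all 112 members the median SE of a paced group against Day-0 was 0.24, and the median 95% interval of the difference between all paced dogs and Day-0 reached 0.405 to either side. Tissue was bulk ventricle, in which fewer cells of a type and less RNA per cell cannot be told apart.

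No solute carrier passed the test, in any comparison. With limma and an adjusted p under 0.05, 0 of the 112 members were called at Day-3, where 0% of all 14302 probe sets tested were called, and 0 at Week-1 (0.028% of all), 0 at Week-2 (0.0839%), 0 at End-stage (0.014%) and 0 for all paced groups against Day-0 (0.301%). None was called for late against early pacing (0% of all) or for any difference among the 5 groups (0%). At an unadjusted p under 0.05 limma gave 11 members at Day-3 (9.82%, against 8.07% of all probe sets), 14 at Week-1 (12.5% against 9%), 17 at Week-2 (15.2% against 11.2%) and 10 at End-stage (8.93% against 8.23%). The same count was 12 for all paced groups (10.7% against 11.7%), 5 for late against early pacing (4.46% against 3.89%) and 14 for any difference (12.5% against 7.37%). Differences below are therefore described by the dogs' own values, and a member that missed the threshold is not thereby shown to be stable.

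Over all members together, the counts of those whose dogs did not overlap those of Day-0 lay near those of all probe sets in most groups. At Day-3 they came to 12 of 112, or 10.7% against 12.6% of all probe sets tested. At Week-1 there were 23, or 20.5% against 16.1%. At Week-2 there were 20, or 17.9% against 17.3%, and at End-stage also 20, or 17.9% against 14.3%. SLC25 and the other families differed in this. Of the 19 SLC25 probe sets, which read 14 genes, 7 did not overlap at Day-3 (6 lower, 1 higher) and 6 in each later group. Those 6 were 4 lower and 2 higher at Week-1, and 5 lower and 1 higher at both Week-2 and End-stage. Of all probe sets, 6.44%, 9.4%, 9.21% and 7.94% were lower without overlap, from Day-3 to End-stage. Of the 93 outside SLC25, the counts were 5 at Day-3, 17 at Week-1, 14 at Week-2 and 14 at End-stage. From Week-1 on, these lay near the shares of all probe sets given above. With all 12 paced dogs set against the 3 Day-0 dogs, 3 members did not overlap, or 2.68% against 2.52% of all; all 3 were lower in the paced dogs, as were 1.61% of all probe sets. These comparisons share the Day-0 dogs, so they are not separate pieces of evidence.

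Those 3 probe sets were carriers of the SLC25 family: both probe sets of SLC25A5 and the single one of SLC25A12. Over the 19 SLC25 probe sets the median difference of all paced dogs from Day-0 was -0.04, and 11 lay below 0. That median was -0.11 without End-stage dog 1 and Week-1 dog 1, -0.14 without Day-0 dog 3 and -0.16 with no filter on low signal. Over the 93 probe sets outside SLC25 it was 0.02 with 41 below 0, and over all 14302 it was -0.01 with 7550 below 0. Among the classes the amino acid and osmolyte transporters had the highest median, 0.22, with 14 of 17 probe sets above 0. These 17 read only 10 genes, and 4 of them read SLC38A2. The remaining classes had medians from -0.11 to 0.06. By group, the SLC25 median was -0.116 at Day-3, -0.035 at Week-1, -0.0885 at Week-2 and -0.0905 at End-stage. Outside SLC25 it was 0.0753, -0.0337, 0.0653 and 0.0047 in the same order. Over all probe sets tested it was 0.0042, -0.0264, -0.0051 and -0.025.

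**Figure D1:**
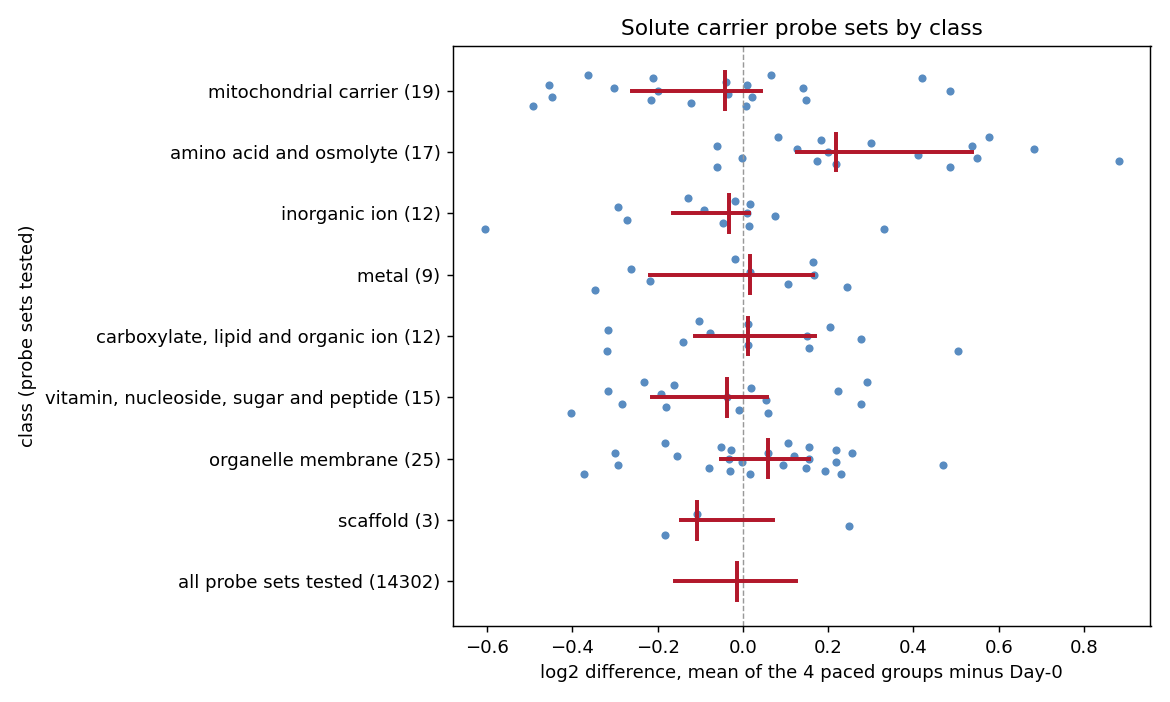
Log2 difference between the mean of the 4 paced groups and Day-0 for each of the 112 solute carrier probe sets tested (points), by class, with the number of probe sets in brackets; red marks are the median and the middle 50% of each class and, in the last row, of all 14302 probe sets tested. The amino acid and osmolyte class lies furthest to the right, with a median of 0.22, and the median of the mitochondrial carriers is -0.04.

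SLC25A4, SLC25A5 and SLC25A6 are the adenine nucleotide translocases, which pass ATP out of the matrix in exchange for ADP; SLC25A4 is the main isoform of heart and skeletal muscle. On 1586669_at, the signals of SLC25A5 were 789.9, 766 and 718 in the Day-0 dogs, 642, 520.4 and 567 in the Day-3 dogs, 569.9, 522 and 607 in the Week-1 dogs, 499, 587 and 478 in the Week-2 dogs and 485, 601 and 614 in the End-stage dogs. Every paced dog lay below every Day-0 dog. The difference of all paced dogs from Day-0 was -0.45 ± 0.10 (SE), a signal 0.733 times that of Day-0, with a 95% interval from -0.662 to -0.234 and an adjusted p of 0.0711 in limma. Over the 27 alternative settings the adjusted p ran from 0.000289 to 0.328; the lowest came from a fit of all 45 arrays, and leaving out Day-3 dog 1 gave 0.0444.

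The second SLC25A5 probe set, 1604231_at, gave 281, 293 and 322 in the Day-0 dogs, 273, 198 and 196 in the Day-3 dogs, 189.9, 191 and 229 in the Week-1 dogs, 242, 205 and 197 in the Week-2 dogs and 164, 209.6 and 279 in the End-stage dogs. Here too the 12 paced dogs lay below the Day-0 dogs, although Day-3 dog 1 and End-stage dog 3 came close to them. The difference was -0.49 ± 0.15 (SE), with an adjusted p of 0.158 in limma. By group, the differences on 1586669_at were -0.40 at Day-3, -0.42 at Week-1, -0.54 at Week-2 and -0.43 at End-stage. On 1604231_at they were -0.44, -0.56, -0.48 and -0.49 in the same order, so the Day-3 difference was already about as large as the later ones. Without End-stage dog 1 and Week-1 dog 1, the End-stage difference on 1604231_at was -0.30.

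In the other translocases the paced dogs overlapped those of Day-0. SLC25A4 gave 7104, 10291 and 10616 in the Day-0 dogs, 6567, 9139 and 8763 in the Day-3 dogs, 6559, 9209 and 8013 in the Week-1 dogs, 6176, 8562 and 8808 in the Week-2 dogs and 6193, 9429.9 and 8676 in the End-stage dogs on 1604403_s_at. Dog 1 had the lowest signal in all 5 groups, and each group's other dogs lay well above it. The paced dogs' difference was -0.22 ± 0.17 (SE), with a 95% interval from -0.582 to 0.149 and overlapping dogs in every group. Dog number itself, tested by a limma F test beside the group means, gave an adjusted p of 0.000758 for SLC25A4; 5 of 112 members and 4.24% of all probe sets passed that test. Without End-stage dog 1 and Week-1 dog 1, which both carry the number 1, SLC25A4 alone of the members passed it, with an adjusted p of 0.0411 in limma, beside 0.42% of all probe sets. Each of the 12 paced dogs had a lower SLC25A4 signal than the Day-0 dog of its number, although the labels do not say that dogs of a number share anything. This is not particular to SLC25A4. It also held for both probe sets of SLC25A5 and of SLC35A1, and for SLC25A11, SLC25A12, SLC25A37, SLC29A1 and SLC5A10. In the other direction, SLC1A4 and SLC49A4 had 0 of 12 paced dogs below the Day-0 dog of their number. The share of all probe sets was not counted for either direction, and each number has a single Day-0 dog.

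SLC25A6 has 3 probe sets, which disagree in sign. Their differences for all paced dogs were -0.21 ± 0.16 (SE) on 1592155_x_at, 0.07 ± 0.12 (SE) on 1601975_s_at and -0.04 ± 0.13 (SE) on 1604119_at, and without End-stage dog 1 and Week-1 dog 1 the first became -0.11 and the last 0.04. On 1601975_s_at the signals were 1458, 1518 and 1336 in the Day-0 dogs, 1430.4, 1274 and 1506 in the Day-3 dogs, 1226, 1572 and 1722 in the Week-1 dogs, 1576, 1646 and 1426 in the Week-2 dogs and 1286, 1782 and 1706 in the End-stage dogs. The groups overlap throughout. Probe sets whose names end in _s_at or _x_at can bind related transcripts, and the 3 translocases are close in sequence, so how far each probe set reads its own gene is uncertain.

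**Figure D2:**
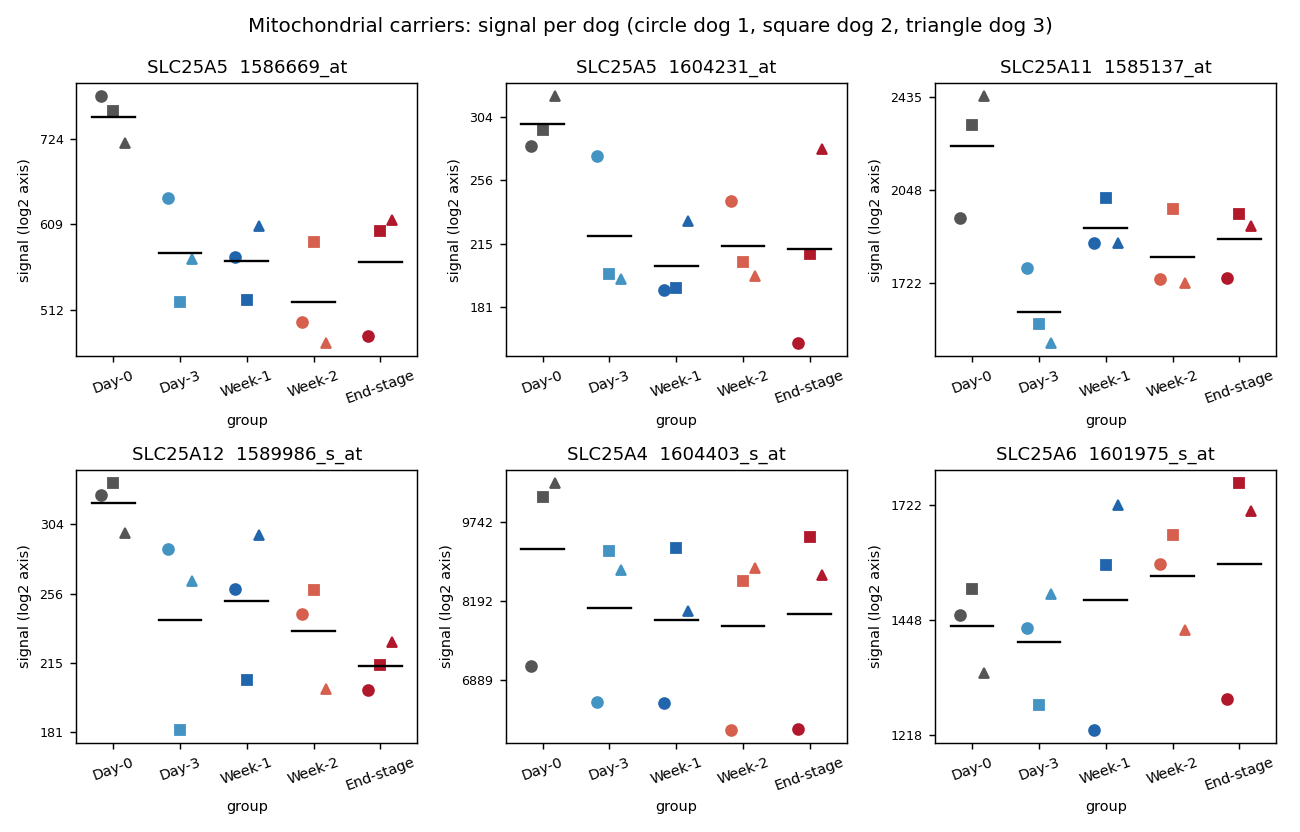
Signal of each dog (log2 axis; circle dog 1, square dog 2, triangle dog 3) in the 5 groups for 6 probe sets of mitochondrial carriers, with the group mean as a black line. In SLC25A5 and SLC25A12 all paced dogs lie below all Day-0 dogs, and in SLC25A4 dog 1 is the lowest of each group.

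SLC25A12, the aspartate-glutamate carrier, and SLC25A11, the oxoglutarate carrier, are the inner membrane parts of the malate-aspartate shuttle. SLC25A12 on 1589986_s_at had signals of 328, 338 and 298 in the Day-0 dogs, 287, 182 and 264 in the Day-3 dogs, 259, 206 and 297 in the Week-1 dogs, 244, 259 and 202 in the Week-2 dogs and 201, 214 and 227 in the End-stage dogs. The highest paced dog, Week-1 dog 3, lay just under the lowest Day-0 dog. The difference of all paced dogs was -0.46 ± 0.14 (SE), or 0.729 times the Day-0 signal, with an adjusted p of 0.165 in limma; it was -0.42 at Day-3 and -0.59 at End-stage.

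For SLC25A11 on 1585137_at the signals were 1946, 2311 and 2442 in the Day-0 dogs, 1772, 1596 and 1539 in the Day-3 dogs, 1857, 2019 and 1854 in the Week-1 dogs, 1737, 1976 and 1723 in the Week-2 dogs and 1737, 1959 and 1917 in the End-stage dogs. The Day-3 dogs had the lowest mean and lay clear of Day-0, and 9 of 12 paced dogs lay below all Day-0 dogs. The difference was -0.44 ± 0.11 (SE) at Day-3 (adjusted p 0.285, limma) and -0.30 ± 0.09 (SE) for all paced dogs (adjusted p 0.161). SLC25A13, the second aspartate-glutamate carrier, was under the filter.

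The carriers for iron and for haem synthesis had differences of opposite sign. SLC25A37, mitoferrin, which imports iron into the matrix, gave 126, 128 and 144 in the Day-0 dogs, 110.1, 104 and 125 in the Day-3 dogs, 115, 117 and 135 in the Week-1 dogs, 115, 102 and 111 in the Week-2 dogs and 115, 116 and 122 in the End-stage dogs on 1585836_at. The spread within a group was narrow, and 11 of 12 paced dogs lay below all Day-0 dogs, with a difference of -0.20 ± 0.10 (SE) and an adjusted p of 0.472 in limma. SLC25A38, which brings in glycine for haem synthesis, gave 83.9, 59.9 and 60 in the Day-0 dogs, 116, 52.3 and 52.7 in the Day-3 dogs, 102, 142 and 112 in the Week-1 dogs, 135, 101 and 95 in the Week-2 dogs and 79.5, 71.9 and 123 in the End-stage dogs on 1598629_at. Week-1 and Week-2 lay above Day-0 without overlap, by 0.81 ± 0.30 (SE) and 0.70 ± 0.30 (SE), whereas Day-3 dogs 2 and 3 were below all Day-0 dogs. The other SLC25A38 probe set, 1595490_s_at, had a Day-0 mean of 19.5, under the filter at 22.8, and passed it through the paced groups. It gave 0.62 at Week-1 and 0.42 for all paced dogs, and the latter ran from 0.0299 to 0.735 over 26 alternative settings, the lowest without the second isolation of each dog.

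SLC25A17, a member of the family that carries cofactors across the peroxisomal rather than the mitochondrial membrane, gave 112, 109.8 and 112 in the Day-0 dogs, 95.3, 64.2 and 89.7 in the Day-3 dogs, 100.3, 65.1 and 72.3 in the Week-1 dogs, 75.3, 115 and 92.1 in the Week-2 dogs and 106, 106 and 76.9 in the End-stage dogs on 1588938_at. The Day-0 dogs were within a few units of each other, and all paced dogs except Week-2 dog 2 lay below them, with a difference of -0.36 ± 0.17 (SE). For the remaining SLC25 genes the estimated differences with all dogs were small, but several had wide intervals, so they are not shown to be stable. SLC25A46, an outer membrane protein, differed by 0.01 (95% interval -0.223 to 0.243) and SLC25A33, a pyrimidine nucleotide carrier, by 0.02 (-0.266 to 0.307). SLC25A36, another such carrier, differed by 0.01 (-0.823 to 0.839) and SLC25A40, a glutathione carrier, by -0.12 (-0.705 to 0.464). In SLC25A36 the signal went with the dog number: dog 1 was highest in 4 of 5 groups, and the number test gave an adjusted p of 0.0168 in limma, or 0.202 without End-stage dog 1 and Week-1 dog 1. Leaving out these dogs also took SLC25A36 to -0.23 and SLC25A40 to -0.28, with -0.74 for SLC25A40 at End-stage. SLC25A40 at Day-3 had its dogs above Day-0, but by only 0.25 ± 0.35 (SE). SLC25A35 differed by 0.14, and the probe sets of SLC25A26, which imports S-adenosylmethionine, by 0.15 and -0.04.

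**Figure D3:**
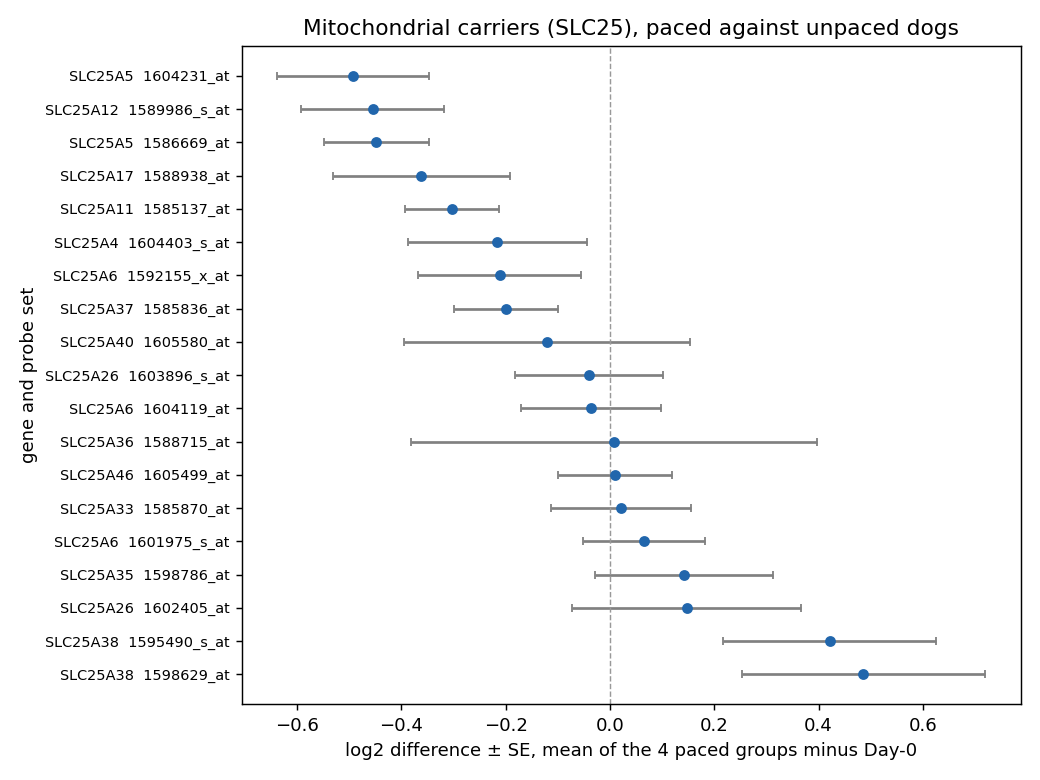
Log2 difference with its SE between the mean of the 4 paced groups and Day-0 for the 19 SLC25 probe sets tested, ordered by size. SLC25A5 and SLC25A12 lie lowest, at -0.49 to -0.45, and the SLC25A38 probe sets highest, at 0.42 and 0.49.

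Genes that work with these carriers were followed as a list: sodium pump subunits, porins, pyruvate carrier subunits, carnitine acyltransferases, creatine kinases, shuttle enzymes, carbonic anhydrases and others. Of 41, 26 had tested probe sets, 43 in all, and 0 passed the limma test in any comparison. Their median difference for all paced dogs was -0.17, with 33 of 43 probe sets below 0, against 7550 of 14302 over all. Beside this stands the heart muscle marker list, 49 probe sets of 11 genes, with a median of -0.11, 32 of 49 below 0 and 0 called. Its summed signal ran from 135000 to 187000 in the Day-0 dogs, 132000 to 170000 at Day-3, 126000 to 175000 at Week-1, 126000 to 176000 at Week-2 and 125000 to 165000 at End-stage. What part the amount of muscle RNA has in the SLC25 values was not tested.

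Amino acid transporters lay mostly above Day-0 on average, but few did so without overlap. Of the 17 probe sets of the class, 1 lay above all Day-0 dogs at Day-3, 2 at Week-1, 3 at Week-2 and 2 at End-stage. Of all probe sets, 6.16%, 6.73%, 8.08% and 6.33% did so in the same order. With all paced dogs together, 0 of the 17 did so, against 0.909% of all. SLC38A2, a sodium-coupled carrier of glutamine, alanine and other small neutral amino acids, has 4 tested probe sets, and all 4 had positive differences for all paced dogs: 0.54 ± 0.19 (SE) on 1589920_s_at, 0.49 ± 0.24 (SE) on 1595649_s_at, 0.41 ± 0.24 (SE) on 1602531_s_at and 0.17 ± 0.29 (SE) on 1595648_at. On 1589920_s_at the signals were 584, 419 and 361 in the Day-0 dogs, 409, 633 and 539.9 in the Day-3 dogs, 669.9, 485 and 595 in the Week-1 dogs, 610.1, 683 and 1239.7 in the Week-2 dogs and 740.4, 731 and 702 in the End-stage dogs. Week-2 and End-stage lay above all Day-0 dogs, while Day-3 dogs 1 and 3 and Week-1 dog 2 lay within the Day-0 range. In all, 9 of 12 paced dogs lay above all Day-0 dogs. The difference was 0.85 ± 0.25 (SE) at Week-2 (adjusted p 0.174, limma) and 0.70 ± 0.25 (SE) at End-stage (adjusted p 0.401). The highest dog on each of the 4 probe sets was Week-2 dog 3.

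On 1602531_s_at, SLC38A2 stood above Day-0 without overlap at Week-1, by 0.49 ± 0.30 (SE), and on 1595649_s_at at End-stage, by 0.66 ± 0.30 (SE). The dimmest, 1595648_at, gave values from -0.0076 to 0.279 when single dogs or isolations were left out, the lowest without Day-0 dog 3. The related SLC38A1, on 1606047_at, differed by 0.08, or -0.03 without End-stage dog 1 and Week-1 dog 1. It went with the dog number (adjusted p 0.0156 in limma, and 0.121 without these dogs). The other SLC38A1 probe set, 1589071_at, differed by 0.20, or 0.09 without these dogs. Dog 1 was its highest dog in all 5 groups, with an adjusted p of 0.147 in the limma test of the dog number. SLC38A3 differed by -0.00 and -0.06 on its probe sets.

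SLC6A6 is the taurine transporter, and taurine is a main osmolyte of heart muscle. Its signals on 1582389_at were 164, 157 and 88 in the Day-0 dogs, 72.8, 214 and 239 in the Day-3 dogs, 122, 353 and 173 in the Week-1 dogs, 311, 165 and 339.9 in the Week-2 dogs and 163, 195 and 508 in the End-stage dogs. The paced dogs spread over a wide range within each group, and Day-3 dog 1 was the lowest of all 15. The other probe set, 1582390_at, gave 33.6, 40.4 and 34.9 in the Day-0 dogs, 33.4, 74.8 and 76.4 in the Day-3 dogs, 45.6, 105 and 36.9 in the Week-1 dogs, 142, 49.7 and 102 in the Week-2 dogs and 64.9, 28.6 and 172 in the End-stage dogs. On both, the Week-2 dogs lay above all Day-0 dogs, by 0.98 ± 0.52 (SE) and 1.31 ± 0.57 (SE), with adjusted p values of 0.514 and 0.407 in limma. The same dogs were high on each of the probe sets: Week-1 dog 2, Week-2 dogs 1 and 3 and End-stage dog 3. The difference of all paced dogs was 0.68 ± 0.41 (SE) and 0.88 ± 0.45 (SE).

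SLC1A3, a glutamate and aspartate transporter, was highest early. On 1582385_at it gave 23.3, 36.8 and 39.3 in the Day-0 dogs, 45.5, 60.5 and 83.3 in the Day-3 dogs, 49.4, 45.7 and 64.2 in the Week-1 dogs, 45.9, 36.1 and 39.7 in the Week-2 dogs and 38.1, 42.4 and 44.8 in the End-stage dogs. The Day-3 and Week-1 dogs all lay above Day-0, and the Week-2 and End-stage dogs lay nearer to it. The difference was 0.92 ± 0.25 (SE) at Day-3, 0.70 ± 0.25 (SE) at Week-1, 0.32 at Week-2 and 0.37 at End-stage; late against early pacing gave -0.47 ± 0.18 (SE), with an adjusted p of 1 in limma. SLC1A4, which carries alanine, serine and cysteine, gave 74.6, 47.7 and 35.4 in the Day-0 dogs, 78.6, 78.5 and 50.4 in the Day-3 dogs, 80.6, 98.6 and 37.9 in the Week-1 dogs, 81.1, 106 and 53.2 in the Week-2 dogs and 86.3, 66.2 and 98.3 in the End-stage dogs on 1588789_at. Its Day-0 dogs themselves spread widely, and with a difference of 0.55 ± 0.29 (SE) the groups overlapped.

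**Figure D4:**
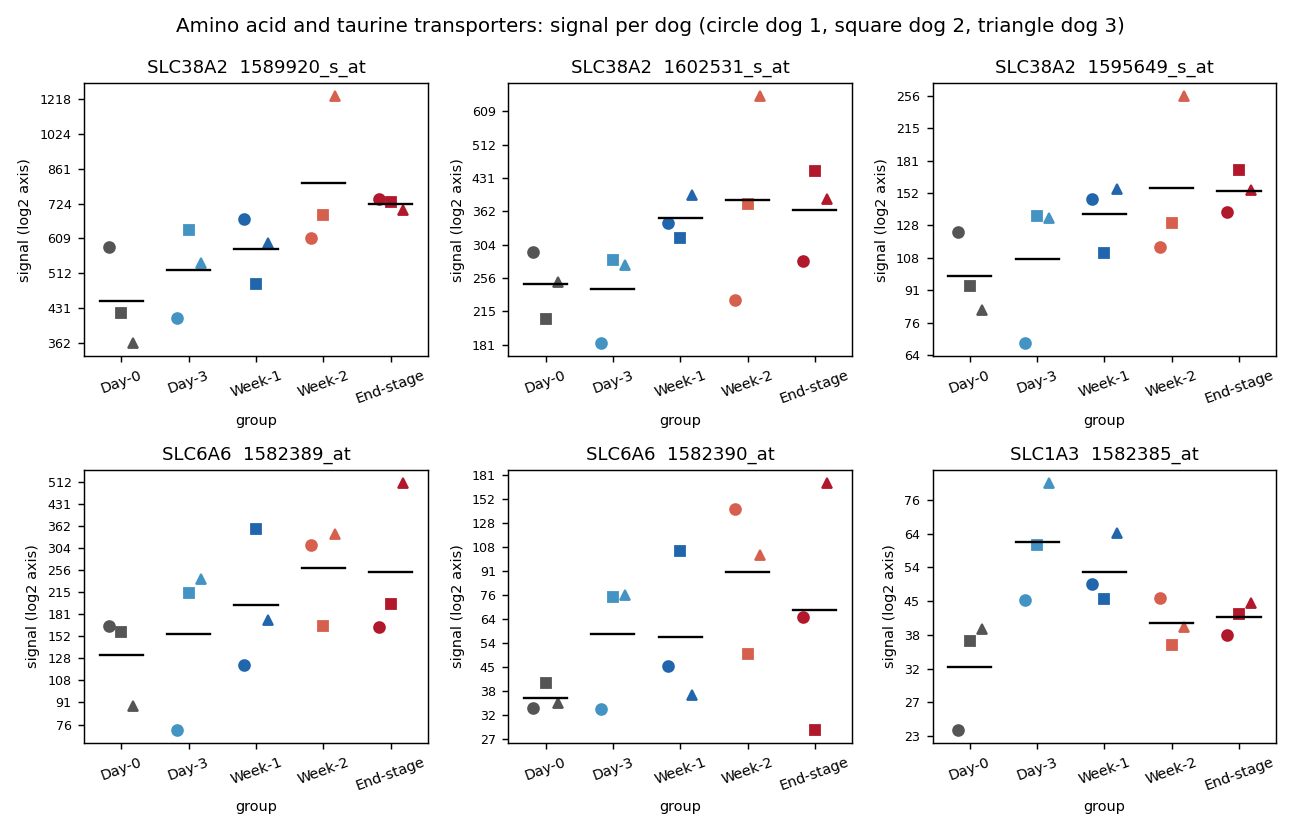
Signal of each dog (log2 axis; circle dog 1, square dog 2, triangle dog 3) in the 5 groups for 3 probe sets of SLC38A2, both of SLC6A6 and that of SLC1A3, with the group mean as a black line. The Week-2 and End-stage dogs of SLC38A2 on 1589920_s_at lie above Day-0, the Week-2 dogs of SLC6A6 lie above Day-0 on both probe sets, and SLC1A3 is highest at Day-3.

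Of the other amino acid transporters, SLC6A18 gave 23.1, 16 and 19.6 in the Day-0 dogs and 38, 50.3 and 21.7 in the Day-3 dogs, which overlap, a difference of 0.84 ± 0.38 (SE). Its Day-0, Week-2 and End-stage means, 19.4, 20.6 and 17.2, lay under the filter at 22.8, which it passed through Day-3 and Week-1, so this difference is a description only. SLC43A2, a carrier of large neutral amino acids, differed by 0.52 at Day-3 and 0.13 over all paced dogs. SLC6A12, a betaine and GABA transporter, differed by 0.22. SLC1A2, a further glutamate transporter, had dog 1 as its highest dog in all 5 groups on 1582406_at, with an adjusted p of 0.0148 in the limma test of the dog number, and its difference for all paced dogs was 0.18. The second SLC1A2 probe set, 1596145_at, gave -0.06. These became 0.03 and -0.19 without End-stage dog 1 and Week-1 dog 1, and the adjusted p of the number test became 0.237 in limma. Fibroblast markers had positive differences beside these transporters: 12 of 14 probe sets lay above 0 for all paced dogs, with a median of 0.49 and 0 called, and summed signals from 8850 to 12800 in the Day-0 dogs, 9980 to 16300 at Day-3, 9530 to 17100 at Week-1, 9550 to 12900 at Week-2 and 9510 to 13300 at End-stage. Their part in the amino acid transporter values was not tested.

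Among carriers of inorganic ions, SLC4A2, a chloride-bicarbonate exchanger that acidifies the cell, gave the largest difference of any member from Day-0. On 1602645_at the signals were 84.9, 54.4 and 104 in the Day-0 dogs, 72.4, 58.2 and 34.2 in the Day-3 dogs, 58, 75.9 and 51.4 in the Week-1 dogs, 114, 70 and 61.7 in the Week-2 dogs and 29.5, 25.8 and 28.7 in the End-stage dogs. The End-stage dogs were alike and lay below all 12 other dogs, at 0.357 times the Day-0 signal, a difference of -1.49 ± 0.31 (SE) with an adjusted p of 0.178 in limma. The other groups overlapped Day-0. The same gene's other probe sets gave smaller values: 1587271_at differed by -0.14 ± 0.23 (SE) at End-stage and 1587272_x_at by -0.34 ± 0.18 (SE). Without End-stage dog 1 and Week-1 dog 1, the End-stage values were -1.53 on 1602645_at, -0.31 on 1587271_at and -0.36 on 1587272_x_at. Smooth muscle and pericyte markers also lay lower at End-stage, in 10 of 11 probe sets of 5 genes, with a median of -0.39, 6 of 11 below Day-0 without overlap and 0 called. Their part in the SLC4A2 values was not tested.

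SLC4A4, the electrogenic sodium-bicarbonate cotransporter, had probe sets on both sides of 0, at 0.33 ± 0.36 (SE), 0.01 ± 0.17 (SE) and -0.05 ± 0.29 (SE), with overlap in every group. They were 0.20, -0.04 and -0.18 without End-stage dog 1 and Week-1 dog 1. SLC24A2, a potassium-dependent sodium-calcium exchanger, gave 118, 152 and 127 in the Day-0 dogs, 134, 127 and 94.4 in the Day-3 dogs, 90.4, 115 and 91.1 in the Week-1 dogs, 129, 118 and 129 in the Week-2 dogs and 76.3, 97.9 and 104 in the End-stage dogs on 1599940_at. It lay below Day-0 without overlap at Week-1, by -0.42 ± 0.17 (SE), and at End-stage, by -0.52 ± 0.17 (SE), but not at Week-2, where the difference was -0.07. SLC20A1, a phosphate transporter, differed by 0.02. SLC12A3, the thiazide-sensitive sodium-chloride cotransporter of the kidney, differed by 0.01 and 0.08. The sulphate carrier family member SLC26A11 differed by -0.13, and SLC34A1, a renal phosphate transporter, by -0.02.

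For the metal transporters the leading member was SLC40A1, ferroportin, the iron exporter of cells. On 1584484_at its signals were 863, 609 and 607 in the Day-0 dogs, 1003, 1102 and 930.0 in the Day-3 dogs, 765, 605 and 540.2 in the Week-1 dogs, 720.4, 459.5 and 741 in the Week-2 dogs and 828, 695 and 693 in the End-stage dogs. The Day-3 dogs lay above every other dog, while 6 of the 9 later dogs lay within the Day-0 range and 3 below it. The difference was 0.56 ± 0.19 (SE) at Day-3, with an adjusted p of 0.44 in limma, and -0.12 at Week-1, or -0.26 there without Week-1 dog 1. On 1602005_at the Day-3 difference was 0.25, and Week-1 and Week-2 lay lower than Day-0, at -0.71 ± 0.36 (SE) and -0.76 ± 0.36 (SE), with overlapping dogs.

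SLC11A1, a metal transporter of macrophage phagosomes, gave 32.9, 56.4 and 32.8 in the Day-0 dogs, 44.3, 61.3 and 49.8 in the Day-3 dogs, 47.4, 46.1 and 37.7 in the Week-1 dogs, 39.1, 43.2 and 48.9 in the Week-2 dogs and 39.1, 40.5 and 37.3 in the End-stage dogs on 1591749_at. It differed by 0.38 ± 0.23 (SE) at Day-3 and 0.17 over all paced dogs, with overlap in every group. Macrophage markers stood above Day-0 at Day-3, in 9 of 11 probe sets of 8 genes, with a median of 0.43, 3 of 11 without overlap and 0 called. Their summed signal ran from 856 to 1130 in the Day-0 dogs, 902 to 1570 at Day-3, 871 to 1600 at Week-1, 944 to 1210 at Week-2 and 985 to 1220 at End-stage. Their part in the iron transporter values was not tested.

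The zinc transporters spread around 0. SLC39A8, which also carries manganese and iron, differed by 0.24 ± 0.16 (SE), SLC39A10 by 0.17, SLC39A6 by 0.02, SLC39A13 by -0.02 and SLC39A12 by -0.22. SLC41A3, of a magnesium transporter family, differed by -0.26 ± 0.19 (SE).

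Of the transporters of carboxylates, lipids and organic ions, SLC13A2, a sodium-coupled carrier of succinate and citrate, gave 9.6, 22 and 29.7 in the Day-0 dogs, 26.7, 60.9 and 34.8 in the Day-3 dogs, 24.2, 20.5 and 24.4 in the Week-1 dogs, 53.1, 30.1 and 42.4 in the Week-2 dogs and 12.6, 18.7 and 9.5 in the End-stage dogs on 1583714_at. The Day-0 and End-stage means, 18.4 and 13.1, lay under the filter, set at 22.8, and the probe set passed it through the groups in which it was high, so its differences are a description only. The Day-3 dogs overlapped Day-0. The Week-2 dogs lay just above Day-0, by 1.14 ± 0.42 (SE), and Day-3 differed by 1.06 ± 0.42 (SE), whereas End-stage stood at -0.50. SLC22A4, an ergothioneine transporter, gave 45.3, 63.3 and 48.2 in the Day-0 dogs and 70.7, 63.7 and 72.1 in the Week-2 dogs, a difference of 0.41 ± 0.19 (SE) without overlap. SLC22A10 gave 40.2, 40.8 and 43.1 in the Day-0 dogs, 55.6, 55.6 and 43.6 in the Day-3 dogs, 33.6, 36.7 and 45.1 in the Week-1 dogs, 47.6, 65 and 38.3 in the Week-2 dogs and 36, 21.7 and 39.8 in the End-stage dogs on 1589670_at. The Day-3 dogs lay above the Day-0 dogs, by 0.31, and the End-stage dogs below them, by -0.40, each by a narrow margin for the nearest dog.

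SLC22A17 gave 0.20 on 1602665_s_at and -0.10 on 1583833_at. The monocarboxylate family members tested were SLC16A13, at -0.32, SLC16A4, at -0.14, and SLC16A14, at 0.01. SLCO5A1 went with the dog number, with an adjusted p of 0.0366 in limma and dog 1 highest in 4 of 5 groups, and differed by 0.16. Leaving out End-stage dog 1 and Week-1 dog 1 gave a difference of -0.01 and an adjusted p of 0.284 in limma's number test. SLC10A1, a bile acid transporter of the liver, gave 31, 40.4 and 43.7 in the Day-0 dogs and 22.9, 24.2 and 30.3 in the Week-1 dogs, a difference of -0.57 ± 0.39 (SE). SLC22A2, a cation transporter of the kidney, and SLC22A18 differed by 0.15 and -0.08.

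SLC29A1, the equilibrative transporter that takes up adenosine, gave 571, 704 and 598 in the Day-0 dogs, 453, 601 and 507 in the Day-3 dogs, 427, 494 and 475 in the Week-1 dogs, 314, 472 and 459 in the Week-2 dogs and 475, 574 and 456 in the End-stage dogs on 1586759_at. Of 12 paced dogs, 10 lay below all Day-0 dogs, and Week-2 dog 1 was the lowest. The difference was -0.61 ± 0.16 (SE) at Week-2 (adjusted p 0.144, limma), -0.42 at Week-1, -0.27 at Day-3 and -0.32 at End-stage. For all paced dogs it was -0.40 ± 0.13 (SE), or 0.756 times the Day-0 signal, with a 95% interval from -0.68 to -0.125 and an adjusted p of 0.199 in limma. Over 27 alternative settings the adjusted p ran from 0.0224, in the fit of all 45 arrays, to 0.643 and passed the threshold in 2 of them. In all 5 groups dog 2 had the highest signal. Endothelial markers also lay below Day-0, in 11 of 14 probe sets for all paced dogs, with a median of -0.18 and 0 called; at Week-1 the median was -0.34, with 5 of 14 below Day-0 without overlap. Their summed signal ran from 7650 to 8660 in the Day-0 dogs, 7570 to 8440 at Day-3, 6510 to 6980 at Week-1, 8250 to 8980 at Week-2 and 7610 to 9120 at End-stage. Smooth muscle and pericyte markers lay below Day-0 for all paced dogs in 11 of 11 probe sets of 5 genes, with a median of -0.36, and had a median of -0.41 at Week-2, with 0 called in each. Their summed signal ran from 9150 to 11400 in the Day-0 dogs, 8310 to 10700 at Day-3, 8300 to 11300 at Week-1, 8210 to 8870 at Week-2 and 7410 to 8130 at End-stage. The part of either list in the SLC29A1 values was not tested.

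Among vitamin carriers, SLC52A2, a riboflavin transporter chosen here after its values were seen, gave 270.2, 196 and 249 in the Day-0 dogs, 310.5, 267 and 262 in the Day-3 dogs, 309, 321 and 292 in the Week-1 dogs, 296, 341 and 234 in the Week-2 dogs and 268, 295 and 286 in the End-stage dogs on 1587198_at. Week-1 lay above Day-0 without overlap, by 0.38 ± 0.15 (SE), and all paced dogs differed by 0.29 ± 0.12 (SE). SLC5A6, which carries biotin and pantothenate, had negative differences on its 3 probe sets, -0.19, -0.16 and -0.32. SLC44A1, a choline transporter, differed by 0.05 ± 0.33 (SE) and 0.28 ± 0.22 (SE), and the first became -0.08 without End-stage dog 1 and Week-1 dog 1. The vitamin C transporter SLC23A2 differed by -0.04 and -0.23.

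The sugar carrier SLC5A10 gave 126, 142 and 115 in the Day-0 dogs and 99.6, 55.2 and 114 in the Week-2 dogs on 1589204_s_at, a difference of -0.57 ± 0.22 (SE) in which Week-2 dog 2 lay far below the rest. The peptide carrier SLC15A2 had its Week-2 dogs above Day-0, by 0.39 ± 0.20 (SE). SLC43A3, a purine base carrier, SLC28A1, a pyrimidine nucleoside carrier, and SLC50A1, a sugar carrier, lay between -0.18 and 0.06 for all paced dogs.

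In the organelle membranes, SLC35A1 brings CMP-sialic acid into the Golgi. On 1582468_at it gave 222, 208 and 189 in the Day-0 dogs, 174, 196 and 187 in the Day-3 dogs, 158, 138 and 123 in the Week-1 dogs, 157, 147 and 188 in the Week-2 dogs and 162, 131 and 162 in the End-stage dogs. Week-1 was lowest, Week-2 and End-stage lay below Day-0 without overlap, and Day-3 overlapped it, so that 11 of 12 paced dogs lay below all Day-0 dogs. The difference was -0.56 ± 0.14 (SE) at Week-1 (adjusted p 0.217, limma) and -0.37 ± 0.11 (SE) for all paced dogs (adjusted p 0.163). The other probe set, 1582469_at, gave -0.41 ± 0.14 (SE) at Week-1 and -0.29 ± 0.11 (SE) for all paced dogs.

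SLC49A4, a lysosomal transporter, gave 147, 170.5 and 182 in the Day-0 dogs, 181, 282 and 221 in the Day-3 dogs, 253, 246 and 187 in the Week-1 dogs, 171, 286 and 236 in the Week-2 dogs and 274, 254 and 205 in the End-stage dogs on 1604575_at. The paced dogs lay above all Day-0 dogs in 10 of 12 cases, with a difference of 0.47 ± 0.16 (SE) and, at End-stage, 0.55 ± 0.21 (SE). SLC35B1, which exchanges ATP and ADP across the endoplasmic reticulum and was chosen after its values were seen, gave 292, 278 and 299 in the Day-0 dogs, 339, 369 and 283 in the Day-3 dogs, 313, 392 and 308 in the Week-1 dogs, 328, 428 and 323 in the Week-2 dogs and 328, 338 and 349 in the End-stage dogs on 1583881_at. All paced dogs except Day-3 dog 3 lay above Day-0, but the difference was small, 0.23 ± 0.11 (SE). The UDP-galactose carrier SLC35A2 differed by 0.11 and 0.26.

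**Figure D5:**
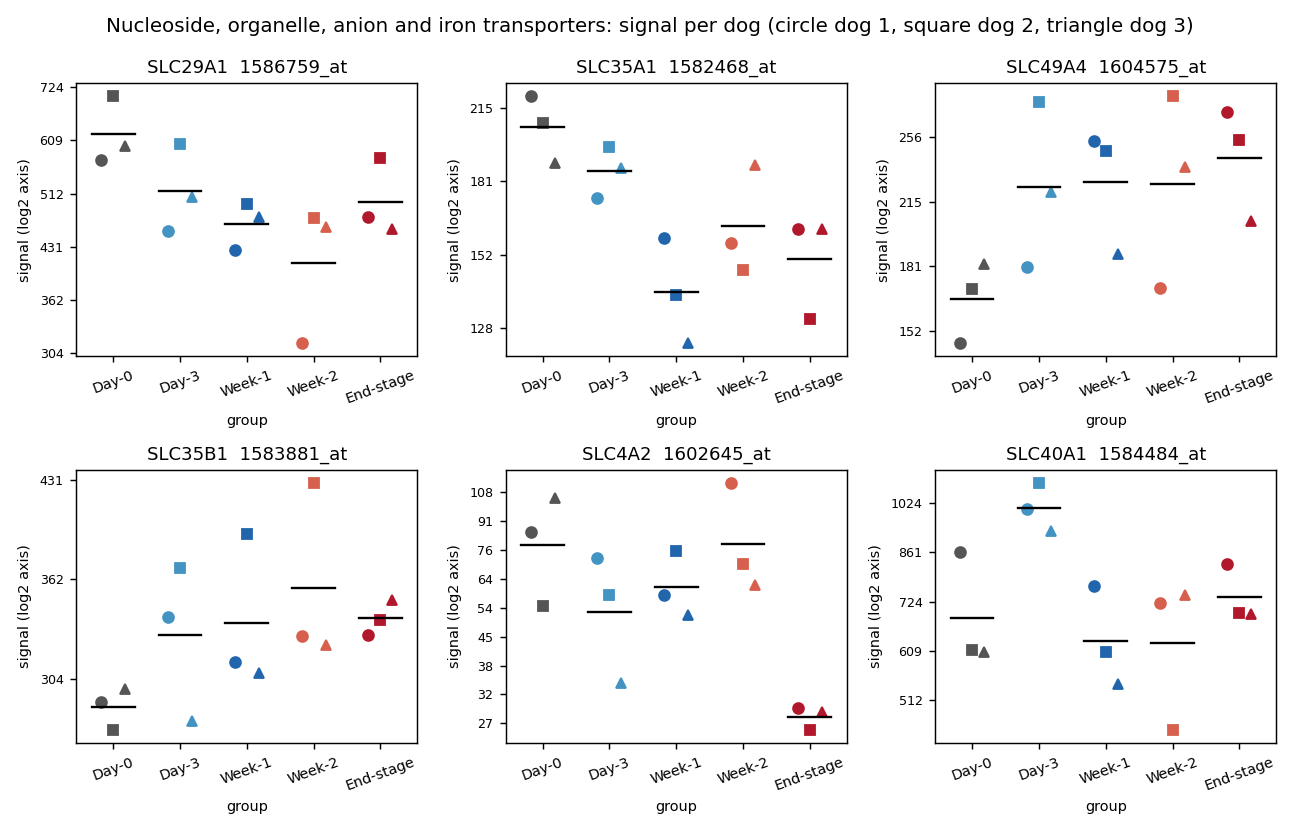
Signal of each dog (log2 axis; circle dog 1, square dog 2, triangle dog 3) in the 5 groups for SLC29A1, SLC35A1, SLC49A4, SLC35B1, SLC4A2 (1602645_at) and SLC40A1 (1584484_at), with the group mean as a black line. On this probe set SLC4A2 is lowest in the 3 End-stage dogs, and SLC40A1 is highest in the Day-3 dogs.

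SLC15A4, a lysosomal carrier of histidine and peptides, had positive differences on its 3 probe sets, from 0.15 to 0.22. On 1593564_s_at its Week-1 dogs lay above Day-0, by 0.34 ± 0.17 (SE). SLC32A1, the vesicular carrier of GABA and glycine, gave 35.9, 42.1 and 35.4 in the Day-0 dogs and 30.3, 22.8 and 21.6 in the Week-1 dogs, a difference of -0.61 ± 0.27 (SE). The vesicular monoamine carrier SLC18A2 differed by 0.15, the endosomal sodium-proton exchanger SLC9A9 by 0.12 with its Week-2 dogs above Day-0, and the Golgi exchanger SLC9A8 by 0.02. The 3 probe sets of SLC35A5 lay between -0.30 and -0.002. The other carriers of the class, SLC18B1, SLC33A1, SLC35A3, SLC35C1, SLC35E3, SLC35F1, SLC37A4, SLC66A2 and SLC66A3, lay between -0.08 and 0.22.

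The symbols SLC9A3R1 and SLC9A3R2, which the rule took in, name scaffold proteins that bind transporters and carry nothing themselves. SLC9A3R2 gave 868, 900.0 and 818 in the Day-0 dogs, 695, 855 and 599 in the Day-3 dogs, 657, 782 and 688 in the Week-1 dogs, 882, 1010.0 and 908 in the Week-2 dogs and 836, 932 and 864 in the End-stage dogs on 1588065_at. Day-3 and Week-1 were low, by -0.28 ± 0.13 (SE) and -0.28 ± 0.13 (SE), and Week-2 and End-stage were back at Day-0, by 0.11 and 0.03. Late against early pacing differed by 0.35 ± 0.09 (SE), with an adjusted p of 1 in limma. The other probe set, 1602783_at, gave -0.30, -0.30, -0.10 and -0.04 over the same groups, the last becoming 0.08 without End-stage dog 1. SLC9A3R1 differed by 0.41 ± 0.23 (SE) at End-stage, where its dogs lay above Day-0.

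Late pacing (Week-2 and End-stage) and early pacing (Day-3 and Week-1) did not separate any member: 0 of 112 had their 6 late dogs outside the range of the 6 early dogs, against 0.168% of all probe sets. The largest differences between late and early pacing were 0.56 ± 0.37 (SE) for SLC6A6 on 1582389_at and, at the other end, -0.68 ± 0.27 (SE) for SLC6A18, which passed the filter only through the early groups, followed by that of SLC1A3. In all 4 paced groups, 24 members lay above Day-0 on average (21.4%, against 21.9% of all probe sets) and 26 lay below (23.2%, against 26.6%). Of 23 genes with more than 1 tested probe set, 17 had all of them on the same side of 0 for all paced dogs, among them SLC38A2, SLC6A6, SLC25A5 and SLC35A1. The 6 with probe sets on both sides were SLC1A2, SLC22A17, SLC25A6, SLC25A26, SLC40A1 and SLC4A4. SLC25A38 was also among the 17, but its dimmer probe set passed the filter through the paced groups, which favours a value above 0. The share of all genes on the array with their probe sets on the same side was not counted.

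A list of 56 transporters known in heart muscle, from the sodium-proton and sodium-calcium exchangers to the carnitine, lactate and fatty acid carriers, had 20 genes on single-symbol probe sets, of which 18 were tested and 0 called in any comparison. The other 36 were not analysed here. Among the members under the filter were SLC5A3, which carries inositol, SLC7A1, which carries arginine and lysine, and SLC27A2, a fatty acid carrier.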

How the data were processed

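The deposited table held 23913 probe sets for 45 arrays; 77 control probe sets were left out. Its values are linear signal intensity, which the authors computed with GCOS 1.4 and MAS5, per the submitters' processing notes. Array medians ran from 33.3 to 48.6. Arrays have no sequencing depth, and the 3 dogs of a group limit the precision.

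Members were named from the array's platform annotation, and 115 of 117 genes were found in the RefSeq table by gene ID. Classes were assigned from textbook knowledge. The log2 signals of a dog's 3 isolations were averaged. Dim probe sets, 40% of the total by mean signal, were dropped. A limma 3.58.1 model (R 4.3.3; a mean per group, eBayes with an intensity trend) was fitted to 15 dogs, and two-sided p values were adjusted by Benjamini-Hochberg over all 14302 probe sets, with a threshold of 0.05, in 7 comparisons. The fit was tested on simulated data with independent dogs and planted shifts larger than most differences given here. That simulation held no effect of the dog number, so it does not cover smaller differences or such an effect. Quoted members comprise, per comparison, the 4 largest differences in each direction whose dogs did not overlap, and a list of 56 cardiac transporters; others are given because they are members. Members, lists and settings were chosen with earlier results of these data known. The test of the dog number, with and without 2 dogs, was added after the values were seen. Normalization, the filter, the offset before log2, the trend, the dogs used, a random dog block and a replicate block were varied. Array probe sequences and protein sequences were not used here.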

Additional observations from a re-analysis of the deposited data

Results flagged for a closer look

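SLC22A10, an organic anion transporter family member, stood above Day-0 in all 3 Day-3 dogs and below it in all 3 End-stage dogs on 1589670_at. The log2 difference from Day-0 was 0.31 at Day-3 and -0.40 at End-stage, so the Day-3 value exceeded the End-stage value by 0.706. The margins were narrow: Day-3 dog 3 gave 43.6 against a highest Day-0 signal of 43.1. End-stage dog 3 gave 39.8 against a lowest Day-0 signal of 40.2. The Day-3 difference had an SE of 0.25 and an adjusted p of 0.859 in limma. The difference between these groups was not tested, and neither group passed the limma test against Day-0. SLC22A10 was found by searching the 112 tested members, and the share of all probe sets with such a pattern was not counted.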

How the results depend on the processing

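The count of members called was 0 in each of the 7 comparisons. A fit of all 45 arrays, in which the dog was a random block and a single correlation between isolations served every probe set, called 3 members at Day-3 (1.91% of all probe sets called), 4 at Week-1 (2.64%), 4 at Week-2 (3.38%), 4 at End-stage (2.25%), 9 for all paced groups (4.9%) and 6 for any difference (3.45%). The 9 were SLC25A5 on both probe sets, SLC25A11, SLC25A12, SLC35A1 on both, SLC29A1, SLC52A2 and SLC38A2. With the dog number as a replicate block, 1 member was called at Week-2 (0.615%) and 1 for all paced groups (1.53%); it was SLC29A1, with adjusted p values of 0.0392 and 0.0465 in limma, and SLC25A4 reached 0.0712 for all paced groups. The deviations of same-numbered dogs did not all correlate above 0.1 between Day-0 and any paced group. Each dog was also set against the 3 dogs of each other group, which made 60 comparisons in which the same dogs recur. The dog that correlated best had the same number in 48 of the 60, and in 14 of the 24 that involved Day-0. End-stage dog 1 and Week-1 dog 1 were among the dogs compared. Leaving out single dogs gave 0 to 1 member for all paced groups and 0 to 0 in the other comparisons. The 1 was SLC25A5 on 1586669_at without Day-3 dog 1 (adjusted p 0.0444 in limma). In that setting 0.776% of all probe sets were called, against 0.893% of the members. The other 185 recomputed counts were also 0.

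Of the 44 probe sets named by rule, whose differences for all paced groups were recomputed under every setting, 10 changed sign under some setting, and none had passed the test. Median centring turned SLC22A10 to -0.000899 and SLC4A4 on 1582946_at to -0.0036. Without End-stage dog 1 and Week-1 dog 1, SLC4A4 on 1582946_at was -0.0392, SLC44A1 on 1594931_at -0.0834 and SLC25A6 on 1604119_at 0.0447. Leaving out single dogs or isolations gave -0.0613 to 0.425 for SLC11A1, -0.101 to 0.132 for SLC20A1, -0.0379 to 0.0795 for SLC22A10, -0.129 to 0.0129 for SLC25A6 on 1604119_at and -0.00758 to 0.279 for SLC38A2 on 1595648_at. It gave -0.268 to 0.386 for SLC44A1 on 1594931_at, -0.365 to 0.055 for SLC4A2 on 1587271_at, and -0.0852 to 0.701, -0.0582 to 0.0661 and -0.238 to 0.14 for SLC4A4 on 1582808_at, 1582946_at and 1594765_at. The cause was not tested. A fit on only the dogs compared was not run for all paced groups or for any difference, which use every dog.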

Other observations

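Some members differed by the dog number of the labels. In the limma F test of the number terms, 5 of 112 members passed (4.46%, against 4.24% of all 14302 probe sets): SLC25A4, SLC25A36, SLC1A2, SLC38A1 on 1606047_at and SLCO5A1. SLC25A4 was lowest in dog 1 in 5 of 5 groups, and SLC1A2 on 1582406_at was highest in dog 1 in 5 of 5. SLC25A36, SLC38A1 and SLCO5A1 were each highest in dog 1 in 4 of 5 groups. Without End-stage dog 1 and Week-1 dog 1, 1 of 112 members passed this test (0.893%, against 0.42% of all), SLC25A4, with an adjusted p of 0.0411 in limma. These genes were named after their values were seen.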
